A study of Mus musculus with 14 samples.

Results

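RNA from the anterior cortex of mice carrying 1 copy of the DG allele of Vcp (DG/+, n = 6) was compared with RNA from wild-type mice (WT, n = 4). All 10 mice were C57BL/6J animals aged 15 months, and each gave 1 library. The DG/+ mice are labelled heterozygous for mutant VCP, and how the allele was introduced is not given in the sources used here. The 10 libraries were chosen by genotype from a series of 14, whose other 4 libraries came from mice homozygous for the allele (DG/DG). Every gene symbol in the deposited count table was kept with its most abundant transcript, which gave 19360 genes from 24939 transcripts. Libraries are named by the mouse numbers in the table, DG/+ 1 to DG/+ 6 and WT 1 to WT 4. The labels call the samples replicates of a genotype with separate mouse numbers and give no sex, litter, batch or date.

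VCP (valosin-containing protein) is an abundant ATPase that pulls ubiquitinated proteins out of membranes, complexes and aggregates and passes them to the proteasome or to autophagy. It works with cofactors that select its clients, such as the UFD1 and NPLOC4 pair for proteins of the endoplasmic reticulum. Dominant mutations of VCP cause frontotemporal dementia and motor neuron disease in people. The series title concerns a dominant hypomorphic VCP mutation and the disaggregation of tau filaments.

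Total counts over the kept transcripts, in units of 1e6, were 12.12 to 15.91 in DG/+ libraries and 8.65 to 14.28 in WT libraries. Each library had reads for 16915 to 17327 genes. Values below are CPM (counts per 1e6 counts of a library, after TMM scaling). The tissue carried the defining transcript of cortical excitatory neurons. Slc17a7, their vesicular glutamate transporter gene, lay between 735.1 and 1081 CPM in DG/+ libraries and between 835.4 and 1013 CPM in WT libraries.

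Several libraries also held transcripts of neighbouring tissue, and these differed from mouse to mouse within both genotypes. Pmch, Hcrt, Oxt and Avp, neuropeptide genes of the hypothalamus, stood at 40.5, 9.64, 16.7 and 16.9 CPM in WT 1 and below 1 CPM in every other library of both genotypes. Ttr, the transthyretin gene of the choroid plexus, ranged from 1.53 to 536.7 CPM in DG/+ libraries with a median of 127.8 CPM, and stood at 15.9, 55.8, 19.2 and 1173 CPM in WT 1 to 4. Fat2 and Cbln3, genes of cerebellar granule cells, reached 41.6 and 24.3 CPM in DG/+ 2 and 40.8 and 21.5 CPM in WT 3, and did not exceed 2.67 and 1.70 CPM in the other libraries. Drd1a, the dopamine receptor gene of striatal projection neurons, was highest in DG/+ 4 at 155.2 CPM and lowest in DG/+ 5 at 11.6 CPM, with WT libraries between 21.1 and 63.2 CPM. Xist stood between 563.4 and 897.6 CPM with at most 0.174 CPM of the Y-linked genes Ddx3y, Uty, Kdm5d and Eif2s3y in DG/+ 1, 2, 5 and 6 and in WT 3 and 4. DG/+ 3 and 4 and WT 1 and 2 carried the Y-linked genes at 21.6 to 94.9 CPM and Xist at no more than 2.0 CPM, so both patterns occurred in both genotypes.

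**Figure D1:**
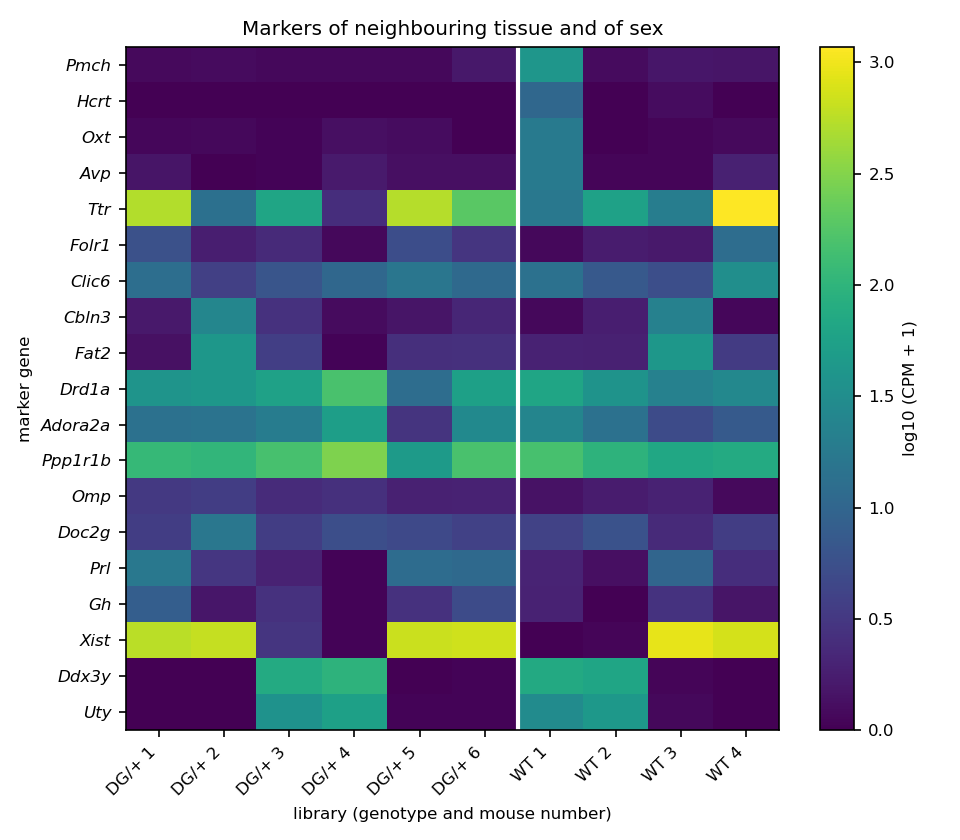
Level of 19 marker genes (rows) in the 6 DG/+ libraries (left of the white line) and the 4 WT libraries (right), as log10 of CPM + 1. Hypothalamic genes are high in WT 1, choroid plexus genes in WT 4 and in DG/+ 1, 5 and 6, cerebellar genes in DG/+ 2 and WT 3, and striatal genes in DG/+ 4.

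Vcp itself (NM_009503, mm10 chromosome 4, 42979964 to 43000507, minus strand) did not differ beyond the spread between mice. It stood between 92.2 and 104.0 CPM in DG/+ libraries, with a median of 101.5 CPM, and at 101.9, 85.3, 98.4 and 103.7 CPM in WT 1 to 4. The ranges overlapped throughout, and WT 2 was the lowest of the 10 libraries. The 6 DG/+ libraries averaged 99.99 ± 4.58 CPM and the 4 WT libraries 97.3 ± 8.32 CPM (mean ± SD). The mean log2 CPM differed by 0.042, with p = 0.514 in a two-sided exact permutation test over 210 splits, the smallest possible p being 0.00952. The edgeR estimate of the log2 fold change was 0.038 with a 95% confidence interval of -0.098 to 0.17, which spans a difference of -6.6% to 12.8%. Without WT 2 the difference of mean log2 CPM was -0.020. Counts per gene do not tell the DG transcript from the normal one, so the share of mutant message was not measured.

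The question for the rest of the transcriptome was which genes differ when 1 copy carries the mutation. After adjustment over all 14565 tested genes, 0 genes (0.0%) were called in DG/+ against WT by edgeR's quasi-likelihood test with Benjamini-Hochberg adjustment at 0.05. The smallest adjusted p was 0.99994. DESeq2 and limma-voom also called 0 genes. At an unadjusted p below 0.05 there were 233 genes (1.6%), 110 higher in DG/+ (0.755%) and 123 lower (0.844%), whereas evenly spread p-values would give 728. The 233 became 155, 142, 155 and 437 without DG/+ 1, 2, 3 and 5, and 456, 426 and 360 without WT 1, 3 and 4. All 6 DG/+ libraries lay outside the range of the 4 WT libraries on the same side for 46 genes (0.316%), 21 above it (0.144%) and 25 below it (0.172%). Of the 210 ways to split 10 libraries into 6 and 4, a fraction of 0.00952 (not a percentage) would set a gene's groups fully apart. The observed 0.316% of genes is a smaller share than that fraction. Fitted log2 fold changes (DG/+ minus WT) were above 0 for 47.3% of the tested genes, with a median of -0.0068.

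The intervals show how large a difference remains possible. The median half-width of the 95% confidence interval was 0.25 on the log2 scale. The whole interval lay within 1.5-fold in either direction for 11189 genes (76.8%) and within 2-fold for 13335 genes (91.6%). Among the 14020 genes averaging 1 CPM or more, 39 had a fitted difference of at least 2-fold, 7 higher and 32 lower in DG/+, and 10 of these 39 had an unadjusted edgeR p below 0.05. The spread between mice was smaller in DG/+ than in WT, with a median SD of log2 CPM of 0.157 in DG/+ libraries and 0.193 in WT libraries. The SD was larger in DG/+ than in WT for 36% of the genes of at least 1 CPM. No test was made of that difference in spread.

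**Figure D2:**
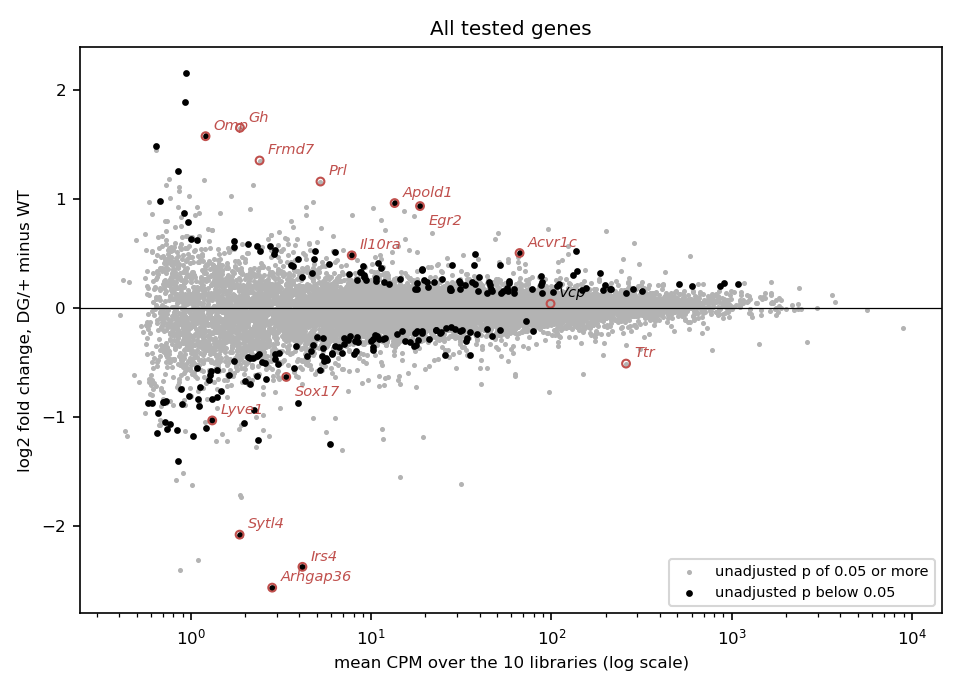
Log2 fold change (DG/+ minus WT) of the 14565 tested genes against their mean CPM over the 10 libraries on a log axis, with genes at an unadjusted p below 0.05 in black and some of the genes named in the text circled and labelled. Fold changes narrow towards 0 with rising level, and the genes farthest from 0 lie below 10 CPM.

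Among genes expressed in immune cells, single genes lay on either side of WT. Il10ra (NM_008348, chromosome 9, 45253837 to 45269149), the ligand-binding chain of the interleukin-10 receptor and in brain a microglial gene, had the smallest p of all genes. It lay between 7.26 and 9.75 CPM in DG/+ libraries with a median of 9.21 CPM, and at 6.79, 5.78, 5.99 and 6.6 CPM in WT 1 to 4. Every DG/+ library was above every WT library. The log2 fold change was 0.48 (SE 0.11, 95% confidence interval 0.25 to 0.71, edgeR adjusted p = 0.99994), and it stayed between 0.43 and 0.54 in every other setting tried.

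Coro1a, an actin regulator of leukocytes and microglia (chromosome 7, 126699774 to 126704816), showed the same separation at a higher level. Its DG/+ libraries lay between 86.3 and 106.0 CPM with a median of 92.2 CPM, and WT 1 to 4 were at 84.9, 81.7, 76.6 and 76.4 CPM, a log2 fold change of 0.24 (SE 0.081, edgeR adjusted p = 0.99994). The gap between the lowest DG/+ library and the highest WT library was small. Ccl28, a chemokine gene of mucosal epithelia (chromosome 13, 119623819 to 119654359), was low in all libraries, at 2.33 to 3.47 CPM in DG/+ and at 1.82, 1.73, 2.08 and 2.04 CPM in WT 1 to 4. Its groups did not overlap either, with a log2 fold change of 0.52 (SE 0.18). Among the 21 genes with all DG/+ libraries above WT, chosen for naming after their values were seen, were also Cysltr1, a leukotriene receptor gene (0.876 to 1.82 CPM in DG/+ and 0.462 to 0.711 CPM in WT), and Tmem173, the STING innate immune sensor gene (2.25 to 3.19 CPM in DG/+ and 1.97 to 2.17 CPM in WT). Tgtp2, an interferon-inducible GTPase gene also named after its values were seen, lay the other way, with 0.398 to 0.743 CPM in DG/+ and 0.809 to 1.48 CPM in WT (-1.07).

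Of 36 tested genes of homeostatic microglia, 30 had a log2 fold change above 0, with a median of 0.097 against -0.0068 over all tested genes. Only Il10ra among them was at an unadjusted p below 0.05, against 1.6% of all tested genes, and 0 passed the adjusted threshold. Gpr34, a lysophosphatidylserine receptor gene of microglia, lay between 7.92 and 16.6 CPM in DG/+ libraries and between 5.78 and 10.9 CPM in WT libraries (log2 fold change 0.47, SE 0.23), with overlapping ranges. Siglech, a microglial sialic acid receptor gene, lay between 11.1 and 14.8 CPM in DG/+ and between 10.3 and 12 CPM in WT (0.25, SE 0.12). Itgam, the CD11b integrin gene, gave 0.17 (SE 0.095). Among the defining markers, Cx3cr1 lay at 40.3 to 54.9 CPM in DG/+ and 44.2 to 45.5 CPM in WT (log2 fold change 0.14). Tmem119 lay at 21 to 28.2 CPM in DG/+ and 22.3 to 27.5 CPM in WT (0.053). P2ry12 and Csf1r, also markers of microglia, gave 0.17 and 0.052. The ranges of each of these markers overlapped between genotypes.

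The mean log2 CPM of the microglia list was highest in DG/+ 2 and DG/+ 1, at 4.27 and 4.21, and lay between 3.97 and 4.09 in the other DG/+ libraries and between 3.93 and 4.08 in WT libraries. The list's median fold change was 0.058 without DG/+ 2, 0.038 without DG/+ 2 and WT 3 together, and 0.15 without the 4 libraries rich in choroid plexus transcripts. In bulk tissue, more microglia and more RNA per microglial cell cannot be told apart. Genes of the disease-associated microglial state had a median of 0.048, with 12 of 17 tested members above 0 and 0 at an unadjusted p below 0.05, and 0.0047 without WT 2. Genes of the interferon response and MHC class I had a median of 0.00024, with 17 of 33 above 0 and 0 at an unadjusted p below 0.05.

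**Figure D3:**
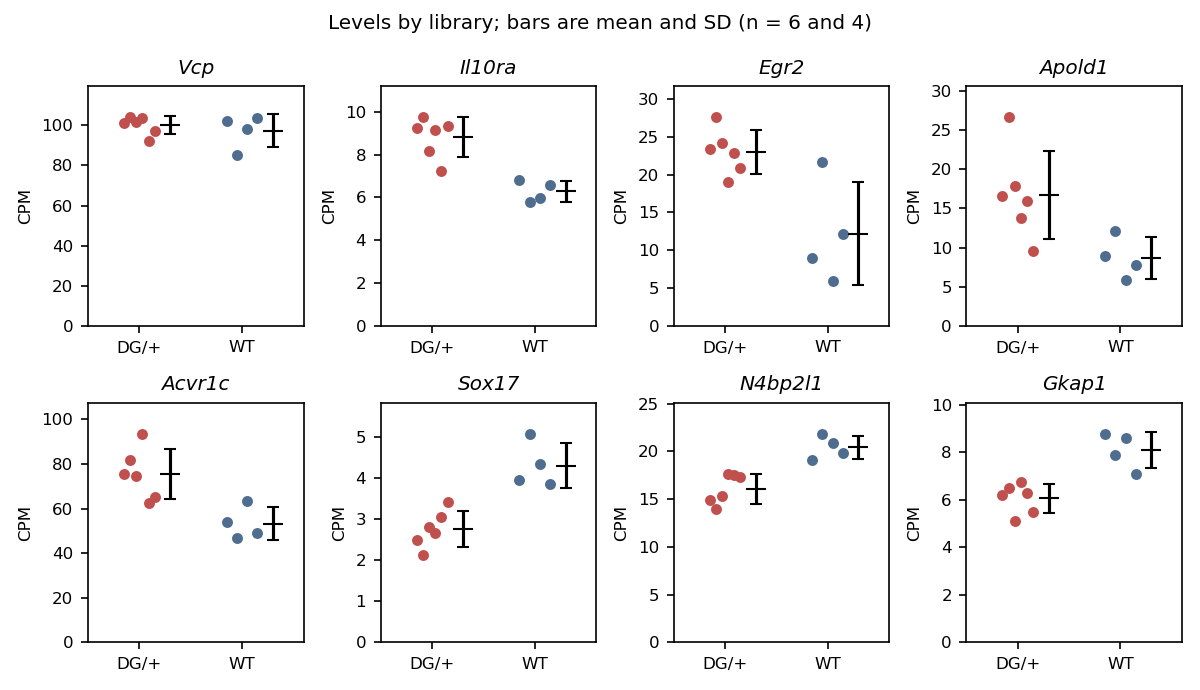
CPM of 8 genes in each library, DG/+ on the left and WT on the right of each panel, with mean and SD beside the points (n = 6 and 4) and axes from 0. Vcp overlaps between genotypes. Il10ra lies above WT in every DG/+ library, Sox17, N4bp2l1 and Gkap1 lie below WT in every DG/+ library, and 1 WT library reaches the DG/+ range for Egr2.

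Immediate early genes are transcribed within minutes of neuronal firing or growth factor signalling and encode transcription factors and synaptic regulators. They carried the most members at an unadjusted p below 0.05 of any list, 6 of 38 tested, all higher in DG/+ (0.755% of all tested genes were higher at such a p), and 30 of the 38 had a log2 fold change above 0. The median was 0.25 against -0.0068 over all tested genes, and 0 members passed the adjusted threshold. Egr2 (NM_010118, chromosome 10, 67534469 to 67542188), a zinc finger transcription factor gene, lay between 19.1 and 27.6 CPM in DG/+ libraries with a median of 23.1 CPM. In WT 1 to 4 it was at 9.01, 21.7, 5.90 and 12.2 CPM. WT 2 lay within the DG/+ range, and the other 3 WT libraries lay below it. Its log2 fold change was 0.94 (SE 0.26, 95% confidence interval 0.38 to 1.49, edgeR adjusted p = 0.99994), and it was 1.34 without WT 2 and 0.66 without DG/+ 2 and WT 3.

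Apold1 (chromosome 6, 134982001 to 134986836), an activity-responsive gene of brain endothelium, ranked next after Il10ra by p among higher genes. It lay between 9.56 and 26.6 CPM in DG/+ libraries with a median of 16.3 CPM, and at 8.93, 12.1, 5.82 and 7.73 CPM in WT 1 to 4. DG/+ 6 was the only DG/+ library below WT 2. The log2 fold change was 0.96 (SE 0.25, edgeR adjusted p = 0.99994), and 0.64 without DG/+ 2 and WT 3.

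The other 4 members at an unadjusted p below 0.05 were Csrnp1, Dusp6, Nr4a1 and Trib1. Csrnp1, a nuclear protein gene induced by AXIN1, had a log2 fold change of 0.35 (SE 0.14), Dusp6, an ERK phosphatase gene, 0.29 (SE 0.12), and Trib1, a pseudokinase gene, 0.39. Csrnp1 was 0.21 without WT 3 and Trib1 0.25 without WT 4. Nr4a1, an orphan nuclear receptor gene, lay between 113.0 and 182.8 CPM in DG/+ libraries with a median of 164.3 CPM, and at 87.0, 191.8, 79.9 and 76.1 CPM in WT 1 to 4 (log2 fold change 0.52, SE 0.24, and 0.94 without WT 2). WT 2 was the highest of all 10 libraries for Nr4a1, while the other WT libraries were the lowest of all.

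Fos and Arc did not reach that p. Fos, the AP-1 transcription factor gene, lay between 49.4 and 92.9 CPM in DG/+ and at 42.3, 93.5, 33.6 and 45 CPM in WT 1 to 4. Arc, a regulator of AMPA receptor endocytosis, lay between 430.3 and 848.0 CPM in DG/+ and at 483.4, 763.7, 396.7 and 254.9 CPM in WT 1 to 4. Their log2 fold changes were 0.46 and 0.48, and 0.86 and 0.80 without WT 2. Fos was 0.30 without WT 3 and 0.23 without DG/+ 2 and WT 3, and Arc was 0.27 without WT 4 and 0.25 without the 4 libraries rich in choroid plexus transcripts. Npas4, a neuron-specific activity factor gene, lay between 25.8 and 47.5 CPM in DG/+ and at 18.6, 67.7, 35.5 and 19.3 CPM in WT 1 to 4. For Npas4, WT 2 was above every DG/+ library, WT 1 and WT 4 were below every one, and WT 3 lay within their range. Fos and Arc were named after their values were seen.

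Within the list the mice differed as a whole. The mean log2 CPM of the 38 genes was 5.29, 5.33, 5.28, 4.84, 5.26 and 5.04 in DG/+ 1 to 6, and 4.75, 5.39, 4.61 and 4.82 in WT 1 to 4. WT 2 thus stood above every DG/+ library, and DG/+ 4 lay near the other WT libraries. WT 2 was the highest WT library for 28 of the 38 genes, and DG/+ 4 the lowest DG/+ library for 24. The list's median fold change ranged from 0.077 without DG/+ 2 and WT 3 to 0.37 without WT 2, with 0.14 without WT 3 and 0.16 without the 4 libraries rich in choroid plexus transcripts.

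Start windows of the immediate early genes are shown because these genes varied together from mouse to mouse. Each sequence is the 250 bases before a RefSeq transcript start (GRCm38.p6, which is mm10), for Egr2 before 1 of its 4 starts. Capitals mark a CArG box, the serum response factor element, or TGACGT on either strand.
Egr2 (chr10:67537619-67537868, plus strand): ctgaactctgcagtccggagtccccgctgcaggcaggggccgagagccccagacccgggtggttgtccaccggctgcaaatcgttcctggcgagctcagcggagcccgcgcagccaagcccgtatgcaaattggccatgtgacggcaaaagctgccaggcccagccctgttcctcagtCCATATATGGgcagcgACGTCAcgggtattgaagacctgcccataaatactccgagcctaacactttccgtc
Fos (chr12:85473640-85473889, plus strand): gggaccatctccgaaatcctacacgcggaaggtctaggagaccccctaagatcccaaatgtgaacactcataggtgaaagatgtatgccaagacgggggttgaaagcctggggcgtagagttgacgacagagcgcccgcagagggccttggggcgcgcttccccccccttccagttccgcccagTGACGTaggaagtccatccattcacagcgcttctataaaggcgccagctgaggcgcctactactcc
Nr4a1 (chr15:101266596-101266845, plus strand): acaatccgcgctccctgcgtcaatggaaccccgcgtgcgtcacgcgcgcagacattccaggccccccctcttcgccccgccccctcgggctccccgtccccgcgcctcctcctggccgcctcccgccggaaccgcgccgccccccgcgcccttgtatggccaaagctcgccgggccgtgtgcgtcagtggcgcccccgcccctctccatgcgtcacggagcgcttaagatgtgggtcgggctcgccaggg

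In the Egr2 window the CArG box lies at positions -72 to -63 and a TGACGT read on the opposite strand at -56 to -51. The Fos window holds TGACGT at -66 to -61, and the Nr4a1 window holds neither element. Of the 38 tested immediate early genes, 29 had at least 1 start window in the RefSeq table, 46 windows in all. TGACGT on either strand was present in 14 of the 46 windows (30.4%), which belong to 12 genes, against 6.47% of all 32851 start windows of 27025 genes. A CArG box was present in 4 windows (8.7% against 1.47%), all of them overlapping starts of Egr2. The EGR family element GCGTGGGCG was present in 1 window (2.17% against 0.536%). A match is a description of the letters and not evidence that a factor binds there.

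Acvr1c, the ALK7 receptor for activin and nodal ligands (chromosome 2, 58267453 to 58357896), lay between 62.7 and 93.5 CPM in DG/+ libraries with a median of 75.1 CPM, and at 53.8, 46.6, 63.6 and 49.0 CPM in WT 1 to 4. Of the DG/+ libraries, only DG/+ 5 was below WT 3, the highest WT library. The log2 fold change was 0.50 (SE 0.15, edgeR adjusted p = 0.99994). Gabra4, a GABA-A receptor subunit of extrasynaptic receptors (chromosome 5, 71569734 to 71658308), lay between 114.1 and 176.6 CPM in DG/+ with a median of 142.0 CPM, and at 102.0, 127.4, 119.3 and 114.6 CPM in WT 1 to 4. Its log2 fold change was 0.30 (SE 0.10), and 0.18 without DG/+ 4 and WT 1. DG/+ 4, its highest library, was also the one with the most striatal transcripts, a tissue in which Gabra4 is abundant, and the part of that in the result was not tested.

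Among 36 tested glutamate and GABA receptor genes, 17 had a log2 fold change above 0 and the median was -0.0063. Gabra4 and Grm3, the group II metabotropic glutamate receptor gene (0.32, SE 0.15), were the 2 members at an unadjusted p below 0.05. Of all tested genes 0.755% were higher at such a p. Grm3 lay between 158.5 and 240.7 CPM in DG/+ and between 114.0 and 195.0 CPM in WT, and its fold change was 0.18 without WT 4. Lmo4, a LIM-domain cofactor gene of cortical layers, was the only one of 38 excitatory neuron and layer genes at such a p, with 98.6 to 134.9 CPM in DG/+ and 86.9 to 115.9 CPM in WT (0.22, SE 0.10). The list's median was 0.058, with 25 of 38 above 0, and it was 0.0048 without WT 4 and -0.013 without the 4 libraries rich in choroid plexus transcripts. Interneuron genes had a median of -0.041, with 15 of 34 above 0, and synapse genes 0.020, with 20 of 36 above 0, and neither list had a member at an unadjusted p below 0.05. Without WT 1 these medians were 0.044 and -0.021.

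The remaining higher genes by p were of mixed function. Klf11, a Krueppel-like transcription factor gene, was above WT in all DG/+ libraries, at 8.82 to 11.3 CPM in DG/+ and 6.89 to 8.77 CPM in WT (0.38, SE 0.12). Gcnt2, an enzyme of branched poly-N-acetyllactosamine synthesis, gave 0.49 (SE 0.17), and Cisd3, a mitochondrial iron-sulfur protein gene, 0.33 (SE 0.11). Omp, the marker of mature olfactory sensory neurons, was low throughout, at 0.908 to 2.61 CPM in DG/+ and 0.211 to 0.955 CPM in WT (1.58, SE 0.51). Rps10 gave 0.44 (SE 0.15) at 4.22 to 6.66 CPM in DG/+ and 3.47 to 4.57 CPM in WT, a low level for a ribosomal protein gene, and its reads may be shared with near-identical copies, so its value is uncertain.

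**Figure D4:**
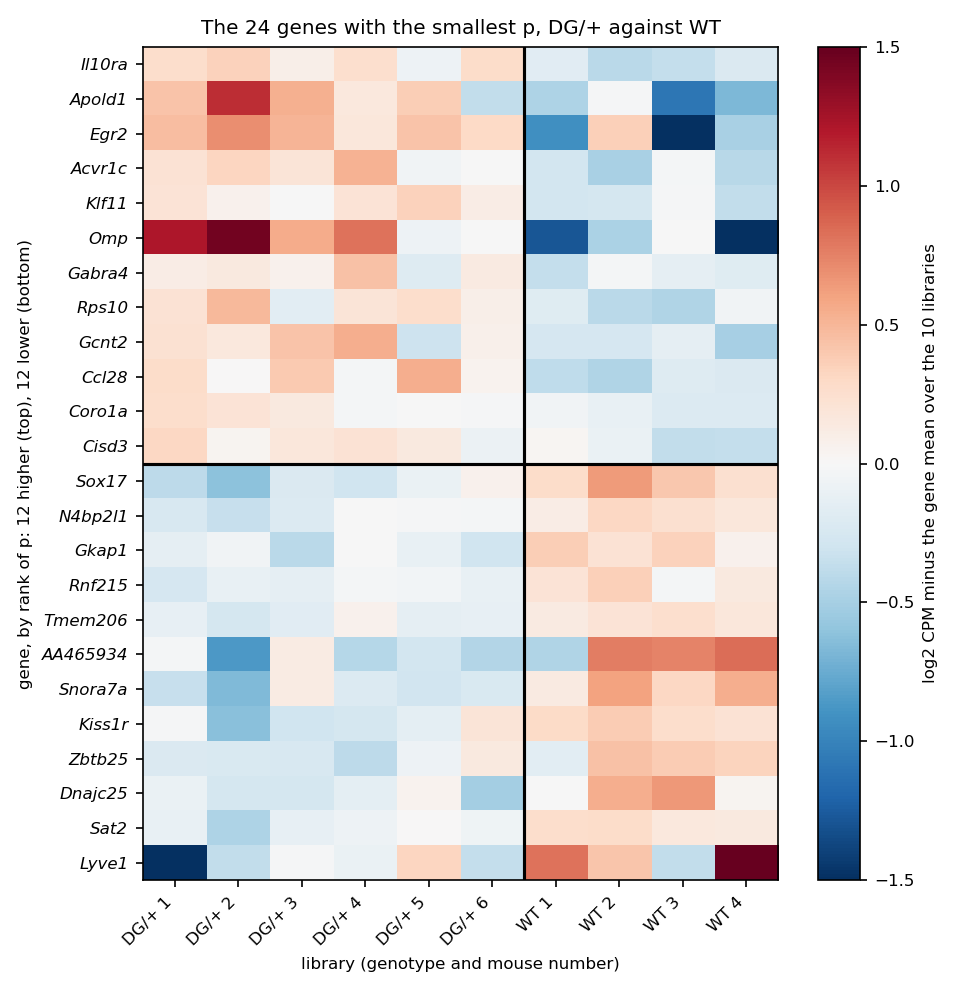
Log2 CPM of the 12 higher and 12 lower genes ranked first by p, minus each gene's mean over the 10 libraries, with DG/+ libraries left of the vertical line and WT libraries right of it. The upper 12 genes are higher and the lower 12 lower in DG/+, and Egr2 in WT 2 and AA465934 in WT 1 stand out from the other WT libraries.

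On the lower side, the gene with the smallest p among those averaging 1 CPM or more was Sox17, a transcription factor gene of arterial endothelium (NM_011441, chromosome 1, 4490928 to 4497426). It lay between 2.14 and 3.43 CPM in DG/+ libraries with a median of 2.74 CPM, and at 3.95, 5.09, 4.34 and 3.86 CPM in WT 1 to 4. Every DG/+ library was below every WT library. The log2 fold change was -0.63 (SE 0.16, 95% confidence interval -0.98 to -0.29, edgeR adjusted p = 0.99994), and it stayed between -0.80 and -0.55 in the other settings. Over the 33 tested endothelial genes the median was -0.0012 with 16 above 0. Sox17 and Itm2a, a membrane protein gene of brain endothelium that stood higher in DG/+ (0.27, SE 0.11), were the 2 members at an unadjusted p below 0.05. Of all tested genes 1.6% were at such a p. The tight junction gene Cldn5 lay between 12.4 and 24.7 CPM in DG/+ and between 17.3 and 23.9 CPM in WT. The median of this list turned positive in 10 of 30 other settings.

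N4bp2l1, a gene of little known function (chromosome 5, 150571643 to 150598678), lay between 13.9 and 17.6 CPM in DG/+ libraries with a median of 16.3 CPM, and at 19.1, 21.8, 20.9 and 19.8 CPM in WT 1 to 4. Its groups did not overlap, with a log2 fold change of -0.34 (SE 0.10, edgeR adjusted p = 0.99994). Gkap1, an anchoring protein gene of cGMP-dependent protein kinase (chromosome 13, 58233346 to 58274877), lay between 5.11 and 6.76 CPM in DG/+ and at 8.77, 7.86, 8.60 and 7.10 CPM in WT 1 to 4, also without overlap (-0.42, SE 0.12). Tmem206, which encodes a proton-activated chloride channel, gave -0.31 (SE 0.10), with 8.32 to 10.4 CPM in DG/+ and 10.9 to 11.8 CPM in WT.

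Kiss1r, the kisspeptin receptor gene, lay between 3.57 and 6.29 CPM in DG/+ and between 6.39 and 7.17 CPM in WT (-0.46, SE 0.16). Sat2, a thialysine acetyltransferase gene, lay between 3.41 and 4.70 CPM in DG/+ and between 5.20 and 5.66 CPM in WT (-0.34, SE 0.12). Snora7a, a small nucleolar RNA gene, gave -0.65 (SE 0.22), with 1.58 to 2.74 CPM in DG/+ and 2.77 to 3.81 CPM in WT. It lies inside a longer gene, so its counts may include reads of that transcript. Rnf215, a RING finger gene (-0.29, SE 0.090), Zbtb25, a zinc finger repressor gene (-0.43, SE 0.15), and Dnajc25, a J-domain protein gene (-0.52, SE 0.18), overlapped between genotypes.

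Lyve1, a hyaluronan receptor gene of border macrophages and lymphatic vessels, gave -1.03 (SE 0.37). It stood at 0.319 to 1.40 CPM in DG/+ libraries and at 1.98, 1.5, 0.868 and 3.16 CPM in WT 1 to 4, so the value rests on few reads. It was -0.64 without WT 4 and -0.52 without the 4 libraries rich in choroid plexus transcripts. AA465934 gave -0.82 (SE 0.27), with WT 1 at 0.948 CPM inside the DG/+ range of 0.713 to 1.41 CPM and WT 2 to 4 between 2.17 and 2.32 CPM. Myc, a growth-promoting transcription factor gene named after its values were seen, lay between 1.20 and 2.22 CPM in DG/+ and between 2.74 and 3.24 CPM in WT (-0.63), without overlap.

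The machinery in which VCP acts had small fitted differences. Of 33 tested genes of VCP cofactors, 21 had a log2 fold change above 0, the values ran from -0.41 to 0.11, the median was 0.021, and 0 were at an unadjusted p below 0.05. Nploc4, which with Ufd1l forms the cofactor for ubiquitinated clients, lay between 80.0 and 92.6 CPM in DG/+ and between 82.6 and 102.3 CPM in WT. Ufd1l lay between 47.2 and 58.8 CPM in DG/+ and between 45.9 and 59.9 CPM in WT. Ubxn7, an adaptor to cullin ligases, had the smallest p of the list, with 115.1 to 135.4 CPM in DG/+ and 102.8 to 126.1 CPM in WT (0.10, SE 0.070, and 0.039 without WT 1).

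Proteasome genes had a median of 0.039, with 27 of 35 above 0 and 0 at an unadjusted p below 0.05. The values ran from -0.25 for Adrm1, a ubiquitin receptor of the proteasome, to 0.22 for Psma5, a core subunit. The median was 0.00025 without WT 2 and 0.11 without WT 1. Genes of endoplasmic reticulum degradation and the unfolded protein response had a median of 0.0042, with 21 of 36 above 0, and heat shock and disaggregation genes a median of 0.0035, with 22 of 40 above 0. Hspa5, the main chaperone of the endoplasmic reticulum, lay between 414.3 and 608.2 CPM in DG/+ and between 438.9 and 604.4 CPM in WT. The sensor kinase gene Ern1 gave -0.14 (SE 0.090). Autophagy and lysosome genes had a median of 0.039 with 39 of 53 above 0. Over the other settings the median ran from -0.018 to 0.032 for endoplasmic reticulum genes, from -0.025 to 0.072 for heat shock genes and from 0.010 to 0.069 for autophagy genes, and it was lowest without WT 2 for heat shock and autophagy. In each of these 3 lists 0 members were at an unadjusted p below 0.05.

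Tau and the enzymes that modify it showed 1 of 31 members at an unadjusted p below 0.05, against 1.6% of all tested genes. Mapt, the tau gene (chromosome 11, 104229409 to 104332090), lay between 527.0 and 642.2 CPM in DG/+ with a median of 579.4 CPM, and at 609.4, 553.1, 594.4 and 555.9 CPM in WT 1 to 4. The list's median was 0.011, with 19 of 31 above 0. Ppp3ca, the catalytic subunit of the phosphatase calcineurin, lay between 822.0 and 982.0 CPM in DG/+ and between 758.6 and 824.7 CPM in WT, with DG/+ 2 and 6 inside the WT range (0.20, SE 0.076, edgeR adjusted p = 0.99994). Cdk5r1, the activator of the tau kinase CDK5, gave 0.11 (SE 0.074).

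Frontotemporal dementia and ALS genes had a median of 0.0018, with 17 of 33 above 0 and 0 at an unadjusted p below 0.05. The C9orf72 orthologue 3110043O21Rik gave -0.13 (SE 0.072) and the autophagy receptor gene Optn -0.14 (SE 0.079). Alzheimer disease genes had a median of 0.012, with 18 of 29 above 0. Cd33, a sialic acid receptor gene of microglia, lay between 3.26 and 5.47 CPM in DG/+ and between 2.95 and 3.70 CPM in WT (0.45, SE 0.17). It was the only member at such a p, against 1.6% of all tested genes. Trem2, a lipid receptor gene of microglia, gave 0.28 (SE 0.17).

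Cytosolic ribosomal protein genes had a median of 0.062, with 61 of 81 above 0 and 3 at an unadjusted p below 0.05, namely Rps10, Rps25 and Rpl36a, all higher in DG/+ (0.755% of all tested genes were higher at such a p). Rps25 lay between 36.9 and 45.2 CPM in DG/+ and between 35.2 and 38.9 CPM in WT (0.16, SE 0.072). Genes of this family have many pseudogenes, and reads may be shared with them. The list's mean log2 CPM was 4.36 ± 0.091 in DG/+ (SD, n = 6) and 4.30 ± 0.042 in WT (SD, n = 4), with DG/+ 2 the highest library at 4.50. Its median fold change was 0.032 without DG/+ 2, 0.039 without WT 3 and 0.013 without both. Oxidative phosphorylation genes had a median of 0.023, with 49 of 76 above 0 and 0 at such a p, and -0.015 without WT 2, -0.013 without WT 3 and 0.088 without WT 1.

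Glycolysis genes had a median of 0.057, with 19 of 23 above 0. Of these 23 genes, 1 was at an unadjusted p below 0.05, higher in DG/+ (0.755% of all tested genes were higher at such a p). The groups did not overlap for 1 of the 23, against 0.316% of all tested genes. Pgk1, phosphoglycerate kinase, lay between 44.1 and 52.4 CPM in DG/+ and between 38.3 and 47.6 CPM in WT (0.17, SE 0.073). Eno1, enolase, was above WT in every DG/+ library, with 118.2 to 132.4 CPM in DG/+ and 102.3 to 118.1 CPM in WT (0.14, SE 0.069), with a narrow gap between the groups. Cholesterol synthesis genes had a median of 0.029 with 19 of 27 above 0, and circadian clock genes 0.044 with 17 of 23 above 0. The medians turned to -0.0088 without WT 3 for cholesterol synthesis and to -0.028 without WT 4 for the clock, which was 0.14 without WT 2. Bhlhe40, a clock repressor that also responds to activity, led the clock list at 0.27 (SE 0.15, and 0.17 without WT 4).

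Glial and vascular lists had medians close to 0 in the fit to all libraries. Astrocyte genes had a median of -0.037 with 5 of 26 above 0, reactive astrocyte genes -0.044 with 6 of 20, oligodendrocyte precursor genes -0.055 with 3 of 19, and mural cell genes -0.040 with 8 of 19. Without WT 1 the medians were 0.016 for astrocytes, 0.037 for reactive astrocytes and 0.090 for mural cells, and the precursor median was -0.0058 without WT 4. Other omissions moved them further below 0. Without WT 2 the medians were -0.080 for astrocytes and -0.11 for precursors, and without WT 3 that of reactive astrocytes was -0.18. The mural cell median was -0.27 without the 4 libraries rich in choroid plexus transcripts. Gfap, the intermediate filament gene of reactive astrocytes, lay between 96.3 and 228.5 CPM in DG/+ and between 120.4 and 215.9 CPM in WT. Myelin and oligodendrocyte genes had a median of 0.042 with 21 of 32 above 0, and -0.12 without WT 4. Mbp, myelin basic protein, stood at 705.7 CPM in WT 4 and between 1060 and 1362 CPM in the other 9 libraries. In these 5 lists 0 members were at an unadjusted p below 0.05. Transcription and splicing regulators had a median of -0.0078 with 19 of 43 above 0. Srsf9, a splicing factor gene, was the only one at such a p, against 1.6% of all tested genes. It lay at 21.8 to 25.1 CPM in DG/+ and 21.9 to 29.5 CPM in WT.

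**Figure D5:**
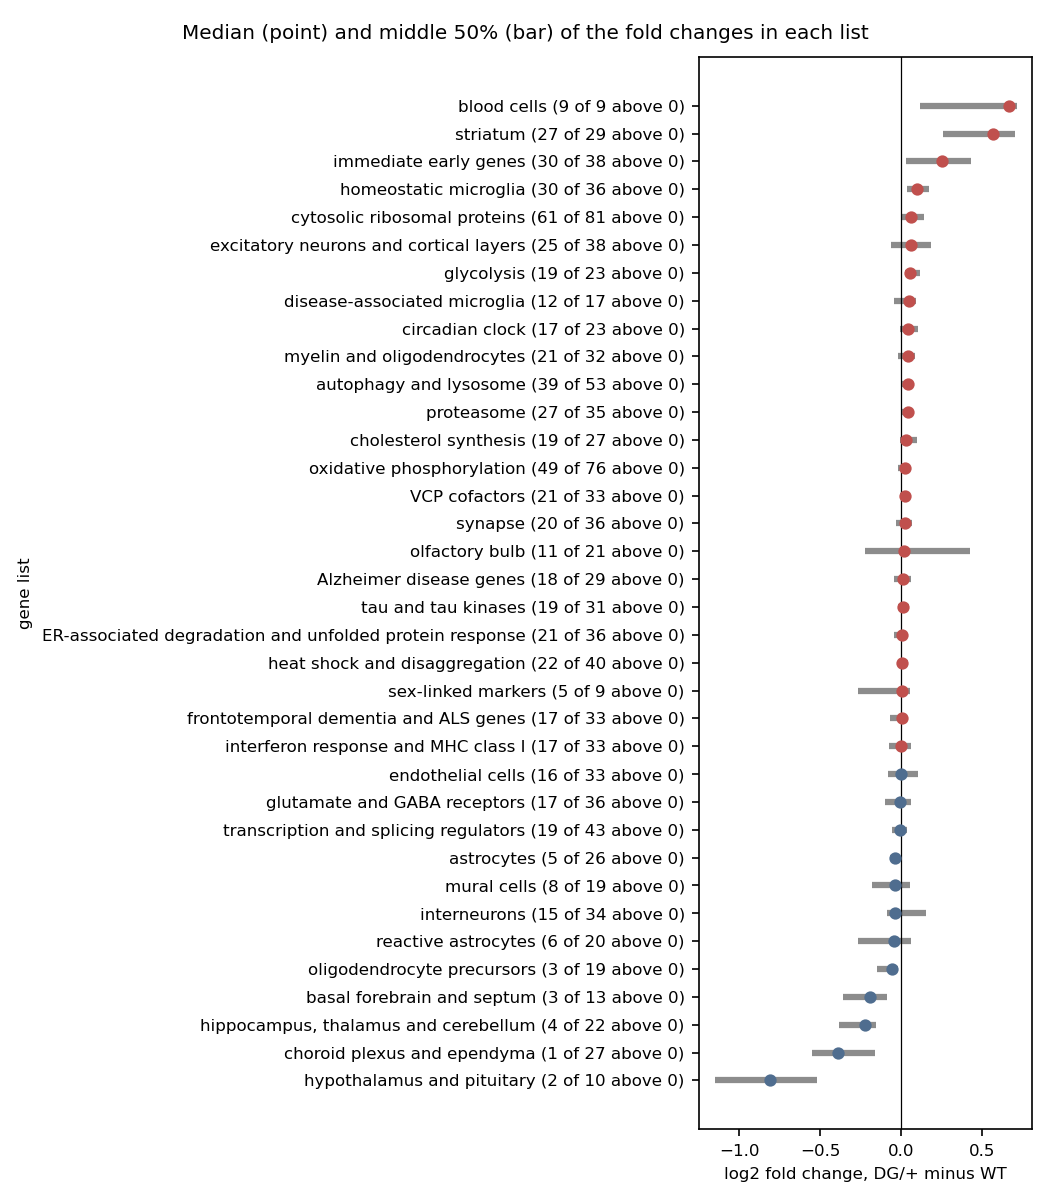
Median (point) and middle 50% (bar) of the log2 fold changes (DG/+ minus WT) of the tested members of 36 gene lists, with the number of members above 0 beside each name. Medians lie within 0.1 of 0 in all but 7 lists, which are immediate early genes, blood cells and 5 lists of other brain regions or tissues.

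The largest medians belonged to lists of blood cells and of other brain regions. Striatal genes had a median of 0.57 with 27 of 29 above 0 and 0 at an unadjusted p below 0.05. Their summed level ran from 1199 to 4833 CPM in DG/+ and from 1473 to 2590 CPM in WT, and the median was 0.16 without DG/+ 4, 0.86 without WT 1 and 0.50 without both. Choroid plexus and ependymal genes had a median of -0.39 with 26 of 27 below 0, and 1.02 without WT 4 (-0.67 to -0.16 in the other single-library omissions). Their summed level ran from 360.6 to 1373 CPM in DG/+ and from 419.4 to 2434 CPM in WT. Hypothalamic and pituitary genes had a median of -0.81 with 8 of 10 tested members below 0, and their summed level ran from 14.9 to 56.3 CPM in DG/+ and from 12.6 to 89.6 CPM in WT. Their median was -0.45 without WT 1, -1.35 without WT 2 and -1.36 without WT 3.

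Genes of hippocampus, thalamus and cerebellum had a median of -0.22 with 18 of 22 below 0, basal forebrain and septum -0.20 with 10 of 13 below 0 (0.53 without WT 1, 0.27 without DG/+ 4 and WT 1), and olfactory bulb 0.014 with 11 of 21 above 0. Of the olfactory bulb genes 1 was at an unadjusted p below 0.05, higher in DG/+ (0.755% of all tested genes were higher at such a p). Blood cell genes had a median of 0.67 with 9 of 9 above 0. The haemoglobin gene listed as Beta-s lay between 2.59 and 13 CPM in DG/+ and between 1.05 and 8.51 CPM in WT, and without DG/+ 4 and WT 1 the blood median was 0.073. Sex-linked markers had a median of 0.0030 with 5 of 9 above 0.

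The lower genes with the largest fitted folds were highest in WT 1. Arhgap36, a gene of the hypothalamus and pituitary, lay between 0.255 and 2.33 CPM in DG/+ and at 15.1, 0.809, 0.695 and 5.83 CPM in WT 1 to 4 (log2 fold change -2.57, SE 0.98). Irs4, an insulin receptor substrate gene of the hypothalamus, lay between 0.634 and 2.95 CPM in DG/+ and at 25, 0.578, 0.955 and 5.55 CPM in WT 1 to 4 (-2.38, SE 0.97). Calcr, Sytl4, Gabrq and Dgkk gave -2.32, -2.08, -1.74 and -1.72 and were also highest in WT 1. Without WT 1 the values were -1.42 for Arhgap36, -0.68 for Irs4, -0.40 for Calcr, -0.61 for Sytl4, -0.60 for Gabrq and -0.87 for Dgkk. WT 2 and WT 3 lay within the DG/+ range for Arhgap36. On the higher side, Gh and Prl, hormone genes of the pituitary, gave 1.65 (SE 2.85) and 1.16 (SE 2.18), and Frmd7, Ido1 and Clspn gave 1.35, 1.18 and 1.12, with intervals that included 0 for all 5. The fit takes its spread from all 14 libraries, and DG/DG 1 held Gh at 1049 CPM and Prl at 2737 CPM. The highest DG/+ values were 7.33 and 15.8 CPM, and the highest WT values 1.82 and 9.12 CPM. Gh and Prl were 0.94 and 0.68 without DG/+ 1, Prl was 2.68 without WT 3, Frmd7 was 0.59 without DG/+ 2 and 2.17 without WT 4, and Ido1 was 0.71 without DG/+ 4. Below a mean of 1 CPM, Cyp2a5 gave 2.16 and Shisa3 1.89, named after their values were seen and resting on few reads.

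Genes on the chromosome of Vcp were counted separately. Of 894 tested genes on chromosome 4, 11 were at an unadjusted p below 0.05 (1.23%), against 1.6% of all tested genes. Within 5 Mb of Vcp the 92 tested genes had a median of -0.0019 (log2), and only Glipr2, a Golgi-associated gene, was at such a p. Glipr2 lay between 2.61 and 4.10 CPM in DG/+ and at 4.19, 2.77, 4.08 and 7.17 CPM in WT 1 to 4 (-0.55, and -0.24 without WT 4). Topors, also within that distance and named after its values were seen, did not reach that p, but its groups did not overlap. It lay between 36.97 and 40.49 CPM in DG/+ and between 32.94 and 36.82 CPM in WT, a narrow gap (0.126, SE 0.065). Its log2 fold change in DG/DG against WT was 0.204 (SE 0.071). Whether this belongs to the Vcp region was not tested.

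The DG/DG mice were fitted in the same model, and both comparisons with WT use the same 4 WT libraries. Transcripts of other tissue were present there too, with Prl at 2737 CPM in DG/DG 1 and Pmch at 53.2 CPM in DG/DG 3. The fold change against WT was 0.32 in DG/DG and 0.48 in DG/+ for Il10ra, 0.89 in DG/DG and 0.94 in DG/+ for Egr2, and 0.55 in DG/DG and 0.96 in DG/+ for Apold1. For Sox17 it was -0.099 in DG/DG and -0.63 in DG/+, and for N4bp2l1 -0.21 in DG/DG and -0.34 in DG/+. For Omp it was -0.0029 in DG/DG and 1.58 in DG/+. DG/DG against WT gave 0 called genes (0.0%) and 747 at an unadjusted p below 0.05 (5.13%) by edgeR. Set directly against each other, DG/DG and DG/+ gave 0 called genes (0.0%) and 481 at an unadjusted p below 0.05 (3.3%) by edgeR.

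The authors' deposited table held their own edgeR comparison of DG/+ with WT over all 24939 transcripts. Of these transcripts, 2 (0.00802%) had a false discovery rate below 0.05 in the authors' deposited table, Pmch with a log2 fold change of -5.00 and a rate of 0.00382, and Hcrt with -4.90 and 0.0352. Both are hypothalamic neuropeptide genes with 9.64 CPM or more in WT 1 and at most 0.558 CPM in the other 9 DG/+ and WT libraries, and neither passed the filter on low counts used here. In edgeR's exact test on every transcript without a filter, Pmch and Hcrt had adjusted p-values of 0.0891 and 0.24. For 13795 of 14565 genes (94.7%) the authors' deposited table and the fit here gave the same sign.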

How the data were processed

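RNA-seq of anterior cortex was deposited by the authors as raw counts per RefSeq transcript. The genome build (mm10) and edgeR come from the submitters' processing notes, and no aligner or read counter is given in the sources used here. The authors' deposited table also holds their edgeR log2 fold changes, p-values and false discovery rates, which are quoted only where named. Another 14 per-sample columns of log2 values were not used.

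Genotypes came from the sample labels. For each gene the transcript with the largest summed count over the 14 libraries was kept, which left out 5579 rows. Counts were tested with edgeR 4.0.16 in R 4.3.3 (TMM scaling, filterByExpr, robust quasi-likelihood fit to all 14 libraries, Benjamini-Hochberg adjustment over 14565 genes, threshold 0.05). The edgeR p-values set the difference between groups against the spread between mice, estimated over all 14 libraries with information shared across genes. Lists are described by counts and medians, with no test. Alternatives used DESeq2 1.42.0, limma 3.58.1, sva 3.50.0, other filters and scalings, and each library left out. The settings without libraries rich in neighbouring tissue, and the exact test on every transcript, were added after seeing the data. The fit was tested on simulated counts with known fold changes, drawn independently for each gene and library. Differences in neighbouring tissue or sex that are shared across genes were not simulated. Promoter windows are from RefSeq (GRCm38.p6).

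Named genes, among those with a mean of at least 1 CPM, are the 12 with the smallest p and the 6 with the largest fold in each direction, up to 5 per list by p, and the 10 with the largest SD in DG/+ libraries. Cell type markers and genes said to be named after their values were seen fall outside that rule, as do pathway genes for which levels alone are given. Members and lists were chosen with earlier results of these data known. Some genes are not reported here.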

Additional observations from a re-analysis of the deposited data

Results flagged for a closer look

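In 14 of 122 groups of 4 or 6 libraries checked, 1 library stood apart from the others of its genotype, by the gap to its nearest neighbour as a share of the group's range. Chance gives about 1 in 20. Among single genes, AA465934 was lowest in WT 1 (0.923), Sat2 lowest in DG/+ 2 (0.72) and Lyve1 lowest in DG/+ 1 (0.649).

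Among mean levels of gene lists, DG/+ 3 was highest of the DG/+ libraries for endoplasmic reticulum degradation and unfolded protein response genes (0.681) and for heat shock genes (0.646). DG/+ 4 was lowest of the DG/+ libraries for tau and tau kinase genes (0.648), astrocyte genes (0.74) and synapse genes (0.773). DG/+ 5 was highest of the DG/+ libraries for reactive astrocyte genes (0.652). WT 1 was lowest of the WT libraries for frontotemporal dementia and ALS genes (0.928) and highest for interferon response genes (0.853). WT 3 was lowest of the WT libraries for endothelial genes (0.869). WT 4 was lowest of the WT libraries for myelin genes (0.888) and highest for choroid plexus genes (0.945).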

How the results depend on the processing

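The number of genes called in DG/+ against WT was 0 in every alternative run at the 0.05 threshold, and the edgeR quasi-likelihood test also gave 0 at an adjusted p below 0.1. DG/DG against DG/+ gave 0 in each alternative in which it was fitted, which leaves out the exact test and the fit to DG/+ and WT libraries alone. The 233 genes at an unadjusted p below 0.05 became 142 to 456 with 1 library left out, 384 with no filter on low counts, 354 with Xist as a covariate and 410 in the exact test on every transcript. The count was 544 without DG/+ 4 and WT 1, and 769 without DG/+ 1, 5, 6 and WT 4. Deviations of same-numbered DG/+ and WT mice from their group means correlated at -0.079, -0.054, -0.035 and -0.20. These correlations gave no sign of pairing by mouse number. They cannot decide whether such mice shared a litter or date, because transcripts of neighbouring tissue and sex also differed between libraries. For some WT mice the mouse numbers differ from the replicate numbers in the sample titles, and pairing by the titles was not tested. A fit with the mouse number as a block gave 0 called genes and 759 at an unadjusted p below 0.05, and Prl at -1.46.

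The Vcp difference ranged from -0.020 to 0.074 with 1 library left out, and its edgeR fold change from -0.019 without WT 2 to 0.070 without WT 4. Without DG/+ 1, 5, 6 and WT 4, Gh turned to -0.31, Prl to -1.79 and Sox10 to -0.0030. The other 3876 values of 130 named genes kept their direction. The causes were not tested. Genes of a few CPM, such as Omp and Lyve1, rest on few reads. With 6 and 4 mice, differences smaller than the intervals given could not be detected, and larger ones could be missed. The intervals are unadjusted, and Il10ra and Sox17, whose intervals left out 0, were not called after adjustment.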
